A study of Arabidopsis thaliana with 72 samples.

Results

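This section describes 4 Arabidopsis genes with a wide daily range in every tissue and day length sampled, once the 2 days were averaged. Their average profile was highest late in the night. The genes were MT1C (AT1G07610), AT5G62900, CLE44 (AT4G13195) and AT1G68238, out of 16722 probe sets that name 1 gene each. They were chosen by their measured values. The value of each probe set was taken as log2(intensity + 1), the 2 days were averaged, and the range between the highest and the lowest of the 6 time means had to be at least 1.5 in each of the 6 groups. The profile averaged over the 6 groups had to be highest at Zeitgeber time (ZT, hours after lights on) 16 or 20. The names AKINBETA1, AT4G27450, AT4G36850 and AAPT2 were left out by the rule itself, and none of them met both the range and the peak time. Range and average peak time of these genes are therefore descriptions, not tested results.

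Plants anticipate dawn and dusk with a circadian clock, in which genes expressed in the morning and in the evening repress each other, and light and sugars act on the same genes directly. In the night a leaf lives on the starch it stored by day. MT1C encodes a metallothionein, a small cysteine-rich protein that binds metal ions such as copper. CLE44 encodes a precursor of the peptide TDIF, which CLE41 also encodes; TDIF is known to signal from the phloem to the procambium, where it is read by the receptor TDR (PXY), keeps vascular stem cells dividing and holds back xylem formation. No role is given here for AT5G62900 and AT1G68238, whose annotation in the files is a locus name only.

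The data are 72 gene arrays of cotyledons of wild type Col-0 seedlings, first sampled at an age of 9 days. Seedlings grew on medium with sucrose, with a light phase of 16 h and a night of 8 h in long days and the reverse in short days, and all 6 groups share this accession and medium. For each day length there were whole leaves, isolated mesophyll and isolated vasculature, the last 2 freed with enzymes and sonication, which gave 6 groups of 12 arrays, 1 array for each of 6 times on day 9 and on day 10. No label states whether both arrays of a time are from separate cultures, so p-values reflect only how these samples spread, and that spread may be technical. In long days the dark began at ZT16 and in short days at ZT8, so samples at these times and at ZT0 lie at a change of light. In bulk tissue, fewer cells of a type and less RNA per cell cannot be told apart.

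Arrays of the same group and time correlated at 0.969 to 0.995 over the 21827 probe sets that passed the filter on low values. One array stood apart: replicate 7 of the long-day whole leaf (ZT0, day 10) averaged an intensity of 54.2 where all the others averaged 67.8 or more, and results that change without it are named. The tissue labels were checked on marker genes. Of 7 mesophyll and photosynthesis markers, 5 had a probe set that passed, and their summed intensity was 3191 to 4575 in long-day mesophyll against 511 to 1117 in long-day vasculature, and 2561 to 4528 against 453 to 828 in short days. Of 12 vasculature and phloem markers, 6 had one, with summed intensities of 2575 to 5240 in long-day vasculature against 293 to 627 in mesophyll, and 3203 to 5806 against 146 to 699 in short days. No epidermis marker of 4 had a one-gene probe set that passed. Of 11 wound and early stress genes, 7 had one, and their summed intensity was 3775 to 5528 in long-day mesophyll, 84.6 to 350 in vasculature and 19.2 to 38.1 in whole leaf, with 3918 to 5740, 205 to 684 and 16.8 to 25.6 in short days. Every tissue comparison below thus also compares samples that differ in wound transcripts, whose part in the results was not tested.

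Genes with a wide daily range everywhere seldom had an average profile highest at ZT16 or ZT20. With the left-out names aside, of which 3 probe sets met the range, 90 one-gene probe sets had a range of at least 1.5 in all 6 groups. Of these, 39 had an average profile highest at ZT0 or ZT4 and 47 at ZT8 or ZT12. The remaining 4, all highest at ZT20, are the genes described here, and none was highest at ZT16. Over probe sets of every kind, left-out names included, 282 met the range and 21 met range and peak time. Of the 21, 17 have no gene name in the annotation used and are not described. The smallest range over the groups was 2.03 for MT1C (short-day whole leaf), 1.74 for AT5G62900 (long-day mesophyll), 1.60 for CLE44 (long-day mesophyll) and 1.51 for AT1G68238 (short-day vasculature). Just outside the limit, with an average profile highest at ZT20, were AT1G47530 (1.43), AT5G47180 (1.42) and AT5G42825 (1.42), each with its smallest range in long-day vasculature.

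**Figure D1:**
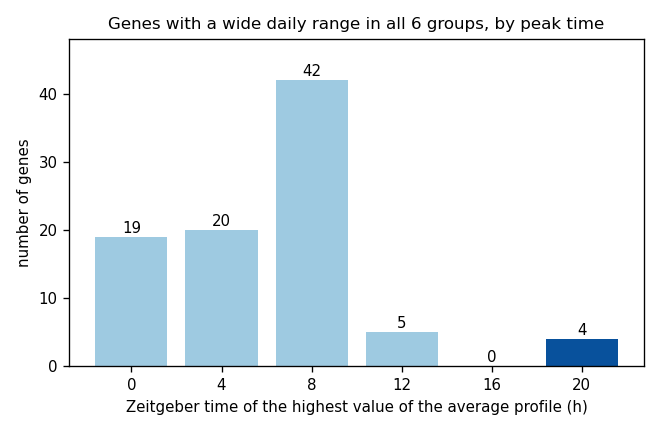
Number of genes, left-out names aside, with a daily range of at least 1.5 (log2) in all 6 groups (y axis), by the Zeitgeber time at which their average profile was highest (x axis, h). The counts were 19, 20, 42, 5, 0 and 4 from ZT0 to ZT20, and the dark bar at ZT20 holds the 4 genes described here.

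The name "night" fits the 4 genes unevenly. Of the 24 combinations of a gene and a group, the highest time mean was at ZT16 or ZT20 in 17, and it lay within the dark, changes of light aside, in 15. By gene, the highest mean was at ZT16 or ZT20 in 5 of 6 groups for CLE44 and for AT1G68238, in 4 for AT5G62900 and in 3 for MT1C. The average profile of MT1C was 6.26 at ZT20 and 6.18 at ZT0, a gap smaller than its median difference of 0.47 between days. Without replicate 7 of the long-day whole leaf, that profile was highest at ZT0 and MT1C did not meet the rule, which then chose 3 genes.

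MT1C had its lowest time mean at ZT8 in long-day vasculature and at ZT12 in the other groups, which in short days lies within the dark. In every group its time means at ZT20 and ZT0 were above those at ZT8 and ZT12. In long-day vasculature its 2 values (day 9 and day 10) were 8.70 and 9.28 at ZT0, 8.44 and 8.73 at ZT4, 7.16 and 6.24 at ZT8, 8.92 and 8.29 at ZT12, 9.51 and 9.29 at ZT16, and 8.77 and 9.33 at ZT20. Only the ZT8 pair was low, and both values there were below all others of the group. In short-day vasculature the values were 8.52 and 8.66 at ZT0, 8.09 and 8.72 at ZT4, 6.16 and 6.39 at ZT8, 4.37 and 4.68 at ZT12, 7.70 and 7.29 at ZT16, and 9.05 and 8.78 at ZT20. The low point came 4 h later than in long days and was deeper, and the range of time means there, 4.39, was the widest of any group for this gene.

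In long-day mesophyll MT1C time means were 5.42 at ZT0, 3.17 at ZT4, 2.41 at ZT8, 2.27 at ZT12, 4.80 at ZT16 and 5.35 at ZT20. In short-day mesophyll they were 3.71, 3.92, 2.73, 1.84, 1.91 and 3.27 at the same times. Mesophyll MT1C was thus already high at ZT16 in long days and still near its low point at ZT16 in short days, where both arrays read 1.91. Whole leaf values lay between the isolated tissues, with time means from 3.92 (ZT12) to 6.78 (ZT20) in long days and from 2.23 (ZT12) to 4.26 (ZT4) in short days. In short-day mesophyll 4 of 12 arrays were under the low-value limit of 1.92, so the trough there may be deeper than measured.

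AT5G62900 had its lowest values at ZT4 in every group and differed between day lengths in shape. In short-day vasculature the values of day 9 and day 10 were 6.44 and 6.36 at ZT0, 4.83 and 4.48 at ZT4, 5.71 and 5.90 at ZT8, 7.77 and 7.60 at ZT12, 7.52 and 7.34 at ZT16, and 6.99 and 6.80 at ZT20. They were high through the night, from 4 h after dark onwards. In long-day vasculature the values were 6.01 and 5.83 at ZT0, 4.45 and 4.68 at ZT4, 5.80 and 5.51 at ZT8, 5.58 and 5.76 at ZT12, 5.17 and 5.03 at ZT16, and 6.57 and 6.94 at ZT20. There the values were alike at ZT8 and ZT12, lower at ZT16, and highest at ZT20, the only time sampled within the dark.

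The whole leaf had the widest range of this gene, 4.14 in long days (17.6-fold) and 3.59 in short days. Its long-day values were 5.06 and 4.54 at ZT0, 2.35 and 2.30 at ZT4, and 6.76 and 6.17 at ZT20, with time means of 4.22 to 4.57 between ZT8 and ZT16. Its short-day time means were 4.64 at ZT0, 2.72 at ZT4, 4.48 at ZT8, 6.31 at ZT12, 6.29 at ZT16 and 5.88 at ZT20. Mesophyll means ran from 1.92 to 3.66 in long days and from 1.89 to 4.47 in short days. The highest time mean of AT5G62900 lay within the dark in all 6 groups, which held for no other of the 4 genes. Its days repeated closely, with a median difference of 0.19 over 36 pairs of arrays, and 31 pairs within 0.5.

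CLE44 had 1 high a day in long-day whole leaf and vasculature, and 2 in long-day mesophyll and in the 3 short-day groups. In long-day vasculature the values of day 9 and day 10 were 3.04 and 3.02 at ZT0, 2.68 and 2.63 at ZT4, 3.01 and 3.55 at ZT8, 4.44 and 4.42 at ZT12, 5.0 and 4.90 at ZT16, and 4.54 and 4.12 at ZT20. A single high stood at lights off, and the long-day whole leaf did the same, from a time mean of 3.10 at ZT4 to 4.84 at ZT16. In short-day whole leaf the values were 3.21 and 3.27 at ZT0, 4.41 and 4.57 at ZT4, 3.82 and 4.07 at ZT8, 2.40 and 2.30 at ZT12, 3.91 and 3.75 at ZT16, and 4.65 and 4.12 at ZT20. Here the highs lay at ZT4 and ZT20, and the ZT12 arrays were the lowest of the group, at a time when long-day arrays were high.

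Short-day mesophyll was also lowest at ZT12, with time means of 4.46 at ZT4, 3.13 at ZT12 and 4.93 at ZT20. Short-day vasculature had a shallower dip, with 4.26 at ZT8, 3.49 at ZT12 and 4.36 at ZT20, and its lowest mean was 2.70 at ZT0. A single 24 h cosine accounted for 91.3%, 64.5% and 97.0% of the CLE44 variance in long-day whole leaf, mesophyll and vasculature, and for 21.3%, 22.2% and 13.5% in short days. The morning high of long-day mesophyll was 4.64 at ZT4, where both arrays lay above those of ZT0 (4.15) and ZT8 (4.03). The days repeated with a median difference of 0.20 (29 of 36 pairs within 0.5).

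AT1G68238 had its lowest time mean at ZT8 in 5 of 6 groups and its highest at ZT20 in 5 of 6, and its mean at ZT0 was below that at ZT20 in every group. In short-day whole leaf the values of day 9 and day 10 were 4.88 and 4.48 at ZT0, 2.74 and 2.31 at ZT4, 2.10 and 1.80 at ZT8, 3.49 and 2.97 at ZT12, 4.59 and 4.17 at ZT16, and 5.48 and 5.21 at ZT20. The rise was steady from the start of the dark to ZT20. Long-day whole leaf time means were 5.30, 3.24, 3.18, 3.92, 4.80 and 6.68 from ZT0 to ZT20, and long-day mesophyll means 4.03, 2.61, 1.68, 3.95, 4.75 and 5.21, so that most of the mesophyll increase came in the light, between ZT8 and ZT16. Long-day vasculature differed, with its highest mean, 5.27, at ZT12 in the light and 4.69 and 4.80 at ZT16 and ZT20. Short-day vasculature was low, with time means from 2.01 to 3.53.

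This gene was the least repeatable between days, with a median difference of 0.53 and 17 of 36 pairs within 0.5. Its largest difference, 2.20, was between 5.65 on day 9 and 3.46 on day 10 at ZT20 in short-day mesophyll. At ZT0 in the long-day whole leaf, the array that stood apart read 4.25 against 6.34 on the other day. Tested over 6 times in each group, day 10 minus day 9 was called for this gene in short-day mesophyll (-1.28 ± 0.25 SE, limma adjusted p = 0.028), with 0.669% of probe sets called there. All 6 pairs of arrays were lower on day 10. The call was lost without ZT0 (-1.15), without ZT16 (-1.20) and without ZT20 (-1.09). No other of the 4 genes was called in that group, and none in the others, where 0%, 0.00916%, 0%, 0% and 0.11% of probe sets were called in long-day whole leaf, mesophyll and vasculature and short-day whole leaf and vasculature. In the 3 groups with 0 limma calls, 1405, 1939 and 2166 probe sets had an unadjusted p under 0.05.

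**Figure D2:**
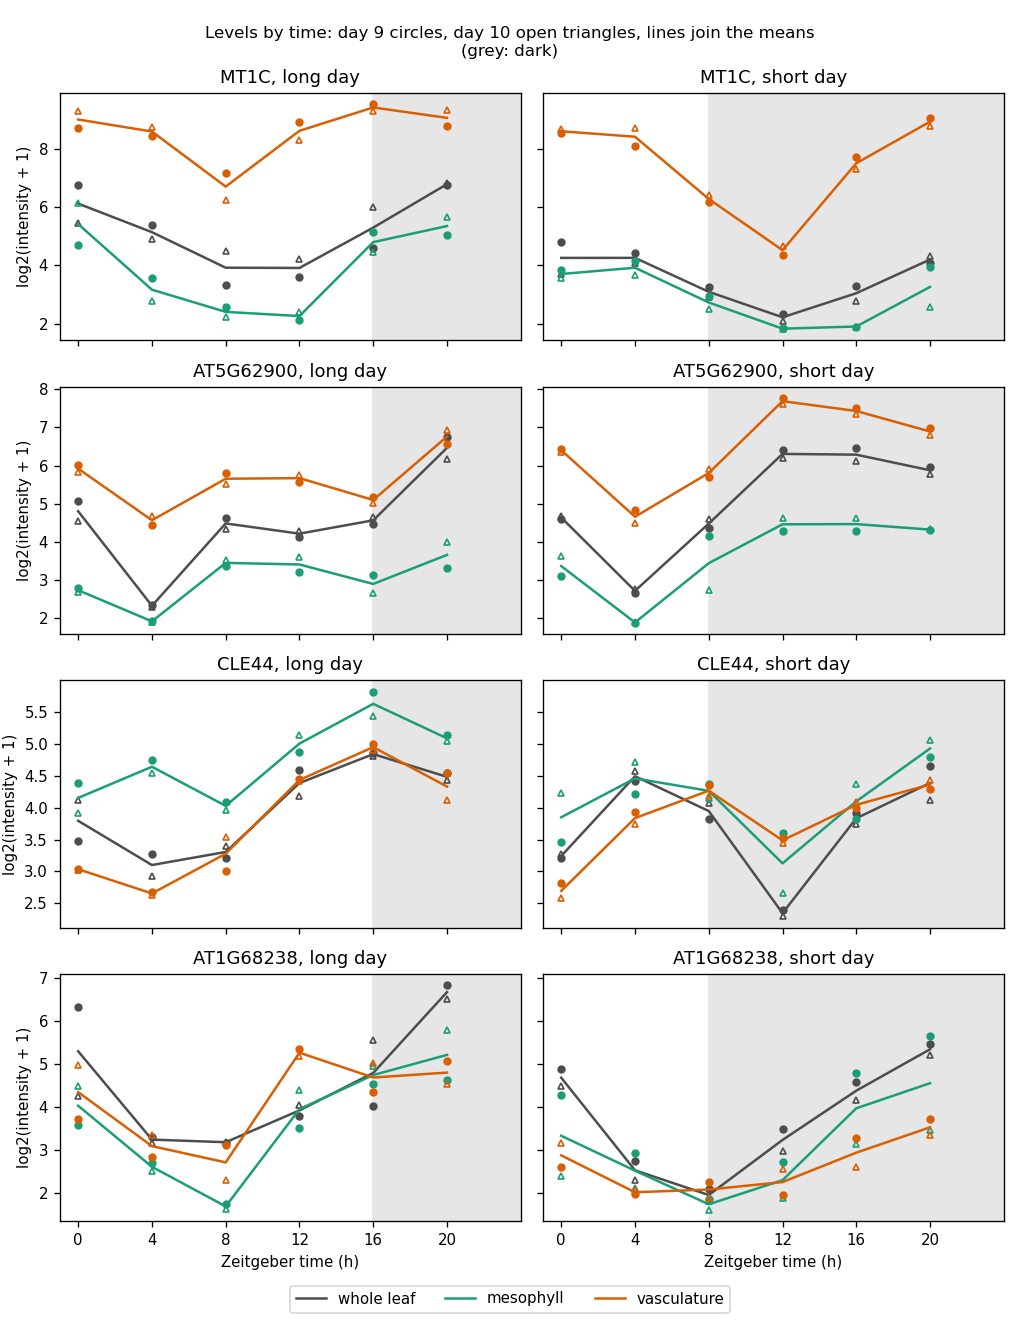
Level of each gene, as log2(intensity + 1), by Zeitgeber time (h) in long days (left) and short days (right), with whole leaf in grey, mesophyll in green and vasculature in orange. Circles are day 9, open triangles day 10, lines join the means, and grey bands are the dark; MT1C in short-day vasculature falls to 4.52 at ZT12, and CLE44 in short-day whole leaf dips to 2.35 there.

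The 4 profiles were only partly alike, with pairwise correlations from 0.23 to 0.77 in long days and from -0.50 to 0.48 in short days. Each group's time means were set relative to that group's mean, and genes were compared over 18 points a day length, which share arrays and days, so the correlations are descriptions. AT1G68238 correlated with MT1C at 0.77 (long days) and 0.27 (short days), and with CLE44 at 0.67 and 0.16. MT1C and AT5G62900 correlated at 0.23 in long days and at -0.50 in short days. AT5G62900 and AT1G68238 correlated at 0.58 in long days and 0.48 in short days, the highest pair in short days only. AT5G62900 with CLE44 gave 0.37 and -0.31, and MT1C with CLE44 0.30 in each day length.

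Levels over the whole day were compared between tissues next, since the series was designed to compare tissues. The mean level was not itself a criterion of the choice, but a range of at least 1.5 in every group leaves out genes that stay dim in any group. These tests are therefore not fully independent of the choice. A difference was called where limma gave an adjusted p under 0.05 over 21827 probe sets and it was at least 1 on the log2 scale. MT1C was far higher in vasculature than in mesophyll, and AT5G62900 was also higher there. CLE44 lay the other way, and AT1G68238 differed by 0.44 ± 0.19 under long days and -0.45 ± 0.28 under short days, neither called. That short-day value was 0.17 from day 10 alone and -1.08 from day 9 alone. Both day lengths had 2 of 4 genes called, all higher in vasculature, where 25.5% of all probe sets were called in long days and 25.1% in short days. Of 86 other genes with a wide range in all groups, 66.3% and 67.4% were called.

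For MT1C, long-day vasculature arrays ran from 6.24 over a median of 8.75 to 9.51, and mesophyll arrays from 2.14 over 4.01 to 6.12, so that the lowest vasculature array was above the highest mesophyll array. Short-day arrays ran from 4.37 over 7.89 to 9.05 in vasculature and from 1.83 over 2.77 to 4.17 in mesophyll, again without overlap. The difference was 4.65 ± 0.17 (SE) in long days (limma adjusted p = 1.27e-13) and 4.47 ± 0.14 in short days (6.54e-14), or 25.1-fold and 22.2-fold on this scale. Vasculature was also above whole leaf by 3.36 ± 0.20 in long days (adjusted p = 2.93e-10) and 3.85 ± 0.12 in short days (6.24e-15). Mesophyll was below whole leaf by a difference of -1.29 ± 0.22 in long days (adjusted p = 9.28e-05), and the short-day difference, -0.62 ± 0.16, was under the minimum. The vasculature and phloem markers moved with it: 5 of 6 were called higher in long-day vasculature and 6 of 6 in short-day vasculature than in mesophyll, with median differences of 3.24 and 3.55. The 7 wound genes moved the other way, all 7 lower in vasculature in each day length, with medians of -4.85 and -5.26.

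AT5G62900 arrays ran from 4.45 over 5.67 to 6.94 in long-day vasculature and from 1.91 over 3.17 to 4.01 in mesophyll, without overlap. In short days they ran from 4.48 over 6.62 to 7.77 and from 1.88 over 4.22 to 4.63, with a narrow overlap. The difference was 2.60 ± 0.09 in long days (adjusted p = 3.07e-14) and 2.82 ± 0.13 in short days (8.21e-12). Mesophyll lay below whole leaf by a difference of -1.47 ± 0.10 under long and -1.39 ± 0.13 under short days, and vasculature above it by 1.14 ± 0.08 and 1.43 ± 0.06, all called. Without ZT4 the long-day value for vasculature was 0.91, under the minimum.

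CLE44 was lower in vasculature than in mesophyll, by a difference of -0.98 ± 0.08 in long days (adjusted p = 6.08e-09) and -0.34 ± 0.12 in short days (0.0168), both under the minimum for a call. With each time left out in turn, the long-day difference passed the minimum without ZT8 (-1.02), ZT12 (-1.06), ZT16 (-1.04) or ZT20 (-1.02). Long-day arrays ran from 2.63 over 3.83 to 5.0 in vasculature and from 3.91 over 4.80 to 5.82 in mesophyll, with overlap. The change of this tissue difference with day length was -0.64 ± 0.14 (adjusted p = 9.19e-04), also under the minimum, and no gene of the 4 was called in that test, in which 2.35% of probe sets were. CLE41, which encodes the same peptide and is also one of the vascular markers used above, was higher in vasculature by 3.04 ± 0.11 under long and 3.48 ± 0.10 under short days. Its daily range was 1.15, 1.94 and 1.42 in long-day whole leaf, mesophyll and vasculature, against 1.74, 1.60 and 2.29 for CLE44. In short days it was 0.41, 0.69 and 0.63 in the same tissues, against 2.15, 1.80 and 1.67 for CLE44. In RefSeq, CLE44 overlaps AT4G13190, whose own probe set had time means of only 1.51 to 2.27 in all groups.

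AT1G68238 had its highest mean in the whole leaf in both day lengths, 4.52 ± 1.40 (SD, n = 12) in long days and 3.69 ± 1.28 in short days. Whole leaf arrays ran from 3.17 over 4.04 to 6.84 in long days and from 1.80 over 3.83 to 5.48 in short days, and all 3 tissues overlapped. In short days vasculature was lower than whole leaf by a difference of -1.07 ± 0.11 (adjusted p = 1.61e-07), which was called, and which was under the minimum without ZT0 (-0.93), ZT16 (-0.999) or ZT20 (-0.92). The long-day difference, -0.37 ± 0.23, did not pass the test. Mesophyll minus whole leaf was -0.81 ± 0.23 in long days and -0.62 ± 0.28 in short days, not called. The 2 of 4 guard cell markers measured had lower summed intensities in both isolated tissues. In long days the sums were 21.9 to 41.3 in whole leaf, 4.58 to 5.80 in mesophyll and 4.82 to 8.47 in vasculature. In short days they were 10.1 to 31.5, 4.36 to 5.22 and 4.36 to 7.86. The part of these markers in the AT1G68238 result was not tested. Its neighbour AT1G68230 did not share its pattern: it was higher in vasculature than in mesophyll by 8.49 ± 0.07 under long and 8.45 ± 0.10 under short days, with daily ranges of 0.43 to 1.09.

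Against the whole leaf, 2 of 4 genes were called in long-day mesophyll (11.2% of probe sets) and 1 of 4 in short-day mesophyll (12.2%), all lower. In vasculature 2 of 4 were called in long days (20.1%) and 3 of 4 in short days (20.9%), of which AT1G68238 alone was lower. Of the 86 other genes with a wide range, 24.4% and 18.6% were called in long-day and short-day mesophyll, and 60.5% and 66.3% in vasculature. These comparisons share arrays with those of vasculature and mesophyll and with each other. MT1A, the tandem neighbour of MT1C with a similar sequence, has no one-gene probe set here, so signal shared between them cannot be told apart. MT1B did not follow MT1C, with time means of 1.49 to 1.94 in all groups, near the low-value limit.

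**Figure D3:**
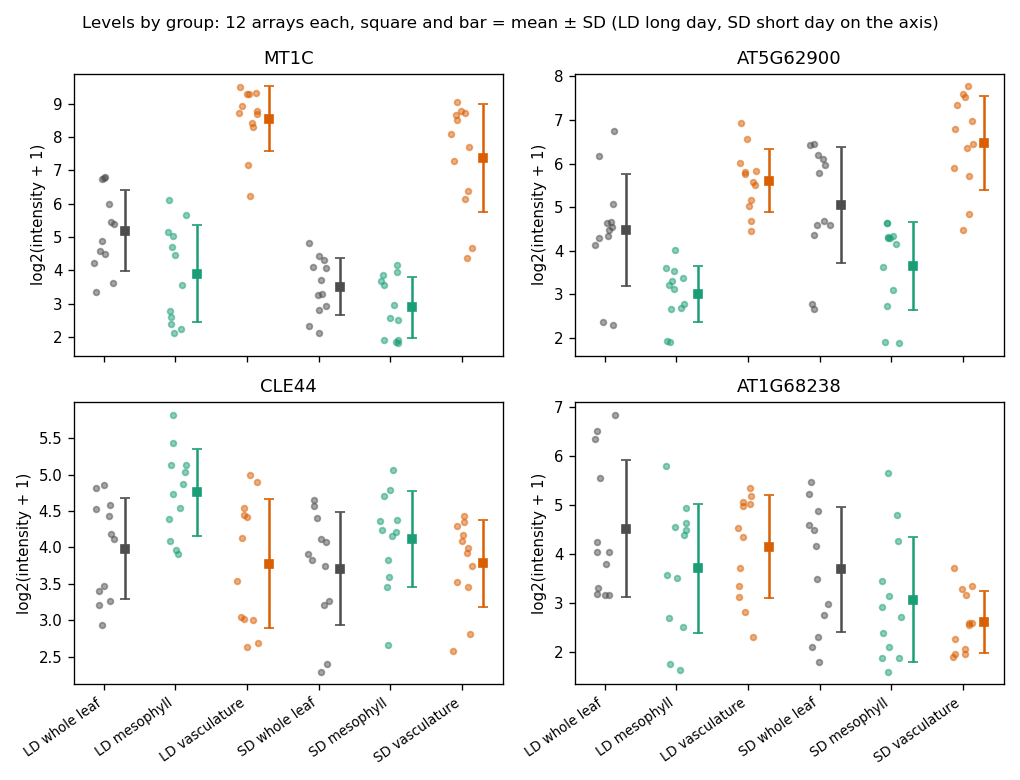
Level of each gene, as log2(intensity + 1), in the 12 arrays of each group (points) with mean and standard deviation (square and bar), for long days (LD) and short days (SD) on the x axis. MT1C vasculature arrays lie between 6.24 and 9.51 in long days, above all long-day mesophyll arrays, and CLE44 is highest in long-day mesophyll.

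Day length was compared next, first over the whole day. MT1C was higher in long days in every tissue, and AT5G62900 was lower in every tissue by less than the minimum. In whole leaf 1 of 4 genes was called, with 1.86% of probe sets called: MT1C arrays ran from 3.34 over 5.14 to 6.81 in long days and from 2.11 over 3.5 to 4.82 in short days, a difference of 1.68 ± 0.20 (adjusted p = 9.36e-06). In mesophyll MT1C alone was called (1.22% of probe sets), at 1.01 ± 0.19 (0.00155), close to the minimum of 1. That call was lost with a pseudocount of 4 (0.82), with median centring (0.99), and without ZT0 (0.87), ZT16 (0.63) or ZT20 (0.79). In vasculature MT1C (1.19 ± 0.13, adjusted p = 5.43e-06) and AT1G68238 (1.54 ± 0.16, 4.82e-06) were called, with 1.48% of probe sets called. The MT1C value there came mainly from ZT12 (4.08) and ZT16 (1.91), with 0.13 to 0.42 at the other times, and without ZT12 it was 0.61 and not called. Of the 86 other genes with a wide range, 16.3%, 9.3% and 9.3% were called in whole leaf, mesophyll and vasculature. The wound and early stress genes differed with day length in the same samples: 2 of 7 were called lower in long days in mesophyll and 2 of 7 in vasculature, and none in whole leaf. Their summed intensity had a median of 4598 in long-day and 5039 in short-day mesophyll, 153 and 384 in vasculature, and 25.6 and 19.9 in whole leaf; their part in the day length results was not tested.

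AT5G62900 was lower in long days by a difference of -0.57 ± 0.08 in whole leaf, -0.65 ± 0.14 in mesophyll and -0.87 ± 0.06 in vasculature, with adjusted p of 4.29e-05, 0.00471 and 1.82e-07. The vasculature value would be a call without ZT4 (-1.02), ZT8 (-1.01) or ZT20 (-1.01). CLE44 differed by 0.28 ± 0.08, 0.64 ± 0.13 and -0.0017 ± 0.065 in the same tissues, and the whole leaf value was -0.076 without ZT12. AT1G68238 differed in whole leaf by 0.83 ± 0.21, and without replicate 7 of the long-day whole leaf by 1.01, which would be a call. In mesophyll it differed by 0.64 ± 0.30, not called, from 1.53 on day 10 alone to -0.25 on day 9 alone. In vasculature its arrays ran from 2.30 over 4.44 to 5.34 in long days and from 1.89 over 2.57 to 3.71 in short days. They overlapped, but every time mean was higher in long days.

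At ZT12 and ZT16, when long-day seedlings were in the light or at its end and short-day seedlings in the dark, more of the 4 genes were called than at the other times. Averaged over the 3 tissues, all 4 genes were called at ZT12, where 3.97% of probe sets were called. MT1C was higher in long days by 2.07 ± 0.26 (adjusted p = 5.18e-08), CLE44 by 1.62 ± 0.14 (5.94e-12) and AT1G68238 by 1.79 ± 0.34 (8.31e-05). AT5G62900 was lower by a difference of -1.72 ± 0.15 (5.78e-12). The genes were chosen for a wide range, and among the 86 other genes so chosen 40.7% were called at ZT12. So 3 of the 4 genes named for the night were higher at ZT12, averaged over the tissues, in seedlings that were still in the light. The AT1G68238 value was 0.69 ± 0.60 in whole leaf, 1.66 ± 0.60 in mesophyll and 3.02 ± 0.60 in vasculature.

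At ZT16, 3 of 4 genes were called, with 5.13% of all probe sets and 37.2% of the 86 other genes called. MT1C was higher in long days by 2.35 ± 0.26 (adjusted p = 2.00e-09) and CLE44 by 1.15 ± 0.14 (1.45e-08). AT5G62900 was lower by a difference of -1.87 ± 0.15 (2.72e-13). AT1G68238, at 0.98 ± 0.34 (0.0255), was just under the minimum and below its own value at ZT20. MT1C in whole leaf also parted more at ZT20 (2.58) than at ZT12 (1.69) or ZT16 (2.24).

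At the other times fewer were called. At ZT0 MT1C was called (1.32 ± 0.26, adjusted p = 4.06e-04), with 1.22% of probe sets called, and without replicate 7 of the long-day whole leaf it was 1.54 and AT1G68238 was called as well. At ZT4 and ZT8 no gene of the 4 was called by limma (1.13% and 2.24% of probe sets), while CLE44 was lower in long days by differences of -0.80 ± 0.14 (9.23e-05) and -0.62 ± 0.14 (9.34e-04), under the minimum. Over all probe sets, 5495 and 7335 had an unadjusted p under 0.05 at these times. At ZT20 MT1C (1.60 ± 0.26, adjusted p = 2.70e-05) and AT1G68238 (1.09 ± 0.34, 0.029) were called, with 1.12% of probe sets called. Of the 86 other genes chosen for a wide range, 12.8%, 25.6%, 22.1% and 19.8% were called at ZT0, ZT4, ZT8 and ZT20.

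The tissues contributed unequally for MT1C. At ZT12 long minus short day was 4.08 ± 0.46 in vasculature, from time means of 8.61 and 4.52, and 0.43 ± 0.46 in mesophyll, from 2.27 and 1.84. At ZT16 it was 1.91 in vasculature and 2.89 in mesophyll, and at ZT20 0.13 and 2.08. The short-day mesophyll arrays at ZT12 (1.85 and 1.83) and at ZT16 (both 1.91) were under the low-value limit of 1.92. The mesophyll differences at these times may therefore be larger than measured, and the unequal share of the tissues at ZT12 smaller. A comparison added after the values were seen tested this difference between tissues at each time. At ZT12 MT1C was called (3.65 ± 0.64, limma adjusted p = 1.70e-04), 1 of 4 genes, with 6.37% of probe sets and 26.7% of the 86 other genes called. At ZT4 CLE44 was called (-1.36 ± 0.34, adjusted p = 0.0299), 1 of 4 genes, with 1.32% of probe sets and 2.33% of the 86 other genes called. Long minus short day of CLE44 was -1.18 in vasculature and -1.39 in whole leaf but 0.18 in mesophyll. Neither the ZT12 nor the ZT4 call held in every fit that left out a day or an array. No gene of the 4 was called at ZT0, ZT8, ZT16 or ZT20, where 1.33%, 3.01%, 6.06% and 0.793% of probe sets were, and 2645, 3666, 4486 and 2437 had an unadjusted p under 0.05. AT5G62900 had the same sign at ZT12 and ZT16 in all 3 tissues, from -1.05 (mesophyll, ZT12) to -2.33 (vasculature, ZT16).

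**Figure D4:**
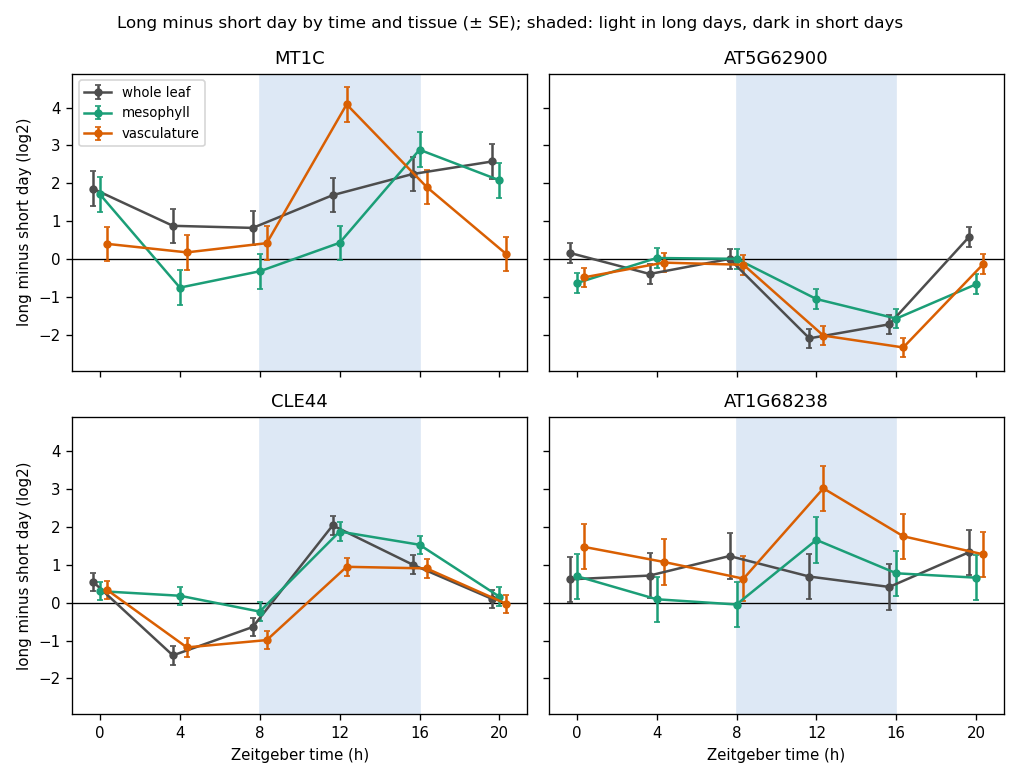
Long minus short day (log2, ± SE) by Zeitgeber time (h) for each gene, with whole leaf in grey, mesophyll in green and vasculature in orange; shading marks the hours that are light in long days and dark in short days. AT5G62900 reaches -2.33 in vasculature at ZT16, MT1C reaches 4.08 in vasculature at ZT12, and CLE44 is below 0 at ZT4 and ZT8 in vasculature and above 0 at ZT12 and ZT16 in all tissues.

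Differences in rhythm were tested as the distance between the 24 h cosine terms of 2 groups, a measure that a wide range, by which the genes were chosen, can enlarge, so nothing is read from their counts against all probe sets. Between day lengths MT1C was called in mesophyll (1.76, limma adjusted p = 0.00935), 1 of 4 genes, with 2.31% of probe sets called, and in vasculature (1.62, 0.0387), 1 of 4, with 5.24%. No gene of the 4 was called in whole leaf (6.62% of probe sets, 5213 with an unadjusted p under 0.05), where CLE44 had 1.19 (0.0513) and MT1C 0.91 (0.0971), and where both were called without replicate 7 of the long-day whole leaf, 2 of 4. Between vasculature and mesophyll MT1C was called in short days (1.29, 0.0409), 1 of 4 (6.13%), and none in long days (7.14%, 4819 with an unadjusted p under 0.05). The vasculature call was lost without the low-value filter (adjusted p = 0.0526) and with a replicate block (0.0536), and the short-day tissue call without that filter (0.0564). With either day left out, none of these MT1C calls remained, the mesophyll call included. In short-day mesophyll 4 of 12 MT1C arrays were also under the low-value limit, which may lessen the rhythm measured there.

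The cosine described CLE44 in short days and AT5G62900 in long days poorly, so a test of group by time terms, free of a wave shape, was added after the values were seen. Sizes here are the span over the 6 times of the difference between groups. Between day lengths AT5G62900 (2.68, adjusted p = 1.76e-05) and CLE44 (3.43, 9.30e-06) were called in whole leaf, 2 of 4 genes (21.8% of probe sets). In mesophyll MT1C (3.64, 0.00633) and CLE44 (2.11, 0.0159) were called, 2 of 4 (10.4%). In vasculature MT1C (3.95, 9.40e-05), AT5G62900 (2.24, 1.29e-05) and CLE44 (2.13, 2.90e-05) were called, 3 of 4 (10.7%). Between vasculature and mesophyll MT1C (2.76, 0.0204) and CLE44 (1.41, 0.0114) were called in long days, 2 of 4 (16.6%), and MT1C (2.97, 0.00276) in short days, 1 of 4 (9.6%). AT1G68238 was not called in any of the 5 comparisons.

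The timing of these genes was set beside other genes of the day and night. None of the list members with a probe set that passed met the night rule. Of 13 evening clock genes, 3 had one: GI, a clock gene of the evening, had a smallest range of 6.52 with an average peak at ZT8, COR27, a cold-regulated repressor tied to the clock, 3.39 at ZT12, and COR28 0.94 at ZT8. Of 13 morning clock genes, RVE5 and RVE6 had one, with smallest ranges of 0.67 (ZT0) and 0.48 (ZT4). Of 23 dark and sugar starvation genes, 3 had one: SEN5, a gene of dark-induced senescence, had 2.77 at ZT8, BZIP53 0.42 and ATL8 0.21. The starch breakdown enzymes PWD and DPE1, 2 of 19, both had a wide range, 1.89 and 2.06, at ZT8.

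At ZT12, long minus short day was 2.02 ± 0.15 for GI and -2.97 ± 0.23 for COR27, with COR28 at -0.10, so 1 of 3 evening genes was called higher and 1 lower in long days, a median of -0.10 against 0.005 over all probe sets. SEN5 was lower in long days by a difference of -4.18 ± 0.24 at ZT12 and -3.59 ± 0.24 at ZT16, the same sign as AT5G62900, and it was the 1 called of 3 starvation genes at each time (medians -0.11 and -0.08). PIF7, a phytochrome-interacting factor, was higher by 1.29 ± 0.24 and 1.95 ± 0.24, 1 of 3 genes in a list of 12, whose other measured members HAT2 and IAA29 were not called. ATG8E, 1 of 6 autophagy genes measured of 9, was lower by differences of -1.31 ± 0.12 and -1.17 ± 0.12, and the medians of that list were -0.28 and -0.30. Neither the 4 measured of 9 genes of branched-chain amino acid breakdown (medians -0.36 and -0.15) nor the 2 of starch breakdown had a call at these times. Of 8 trehalose phosphate synthases none had a one-gene probe set that passed.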

How the data were processed

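The authors deposited linear intensities per probe set of 72 gene arrays, which per the submitters' processing notes come from GCRMA (version not given in the sources used here). This method adjusts background, gives arrays a common distribution and sums probes, so a shift shared by most genes would be removed. All 72 columns matched 1 sample each, and groups, times and days came from the labels.

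Deposited intensities were analysed as log2(intensity + 1), so changes of dim genes are understated. Probe sets above 2.77 (the 40th percentile) in at least 6 arrays were kept, 21827 of 28583, and all 4 genes passed. Of all probe sets, 16722 name 1 gene, 759 several and 11102 none in the platform annotation used, and 16574 of the one-gene sets were found in RefSeq, from which neighbours were read. The number of arrays limits the precision.

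Tests used limma 3.58.1 in R 4.3.3 (lmFit, eBayes) on all kept probe sets, with Benjamini-Hochberg adjustment over all of them, and separate terms for every combination of group and time. To be called, a difference had to reach 1 with an adjusted p under 0.05 (adjusted p alone for rhythm tests). Comparisons between tissues used the 24 arrays concerned, and those at a time all 72. The code was tested on simulated data. Another pseudocount, scaling, filter, a replicate block and left-out days, times or arrays were tried. Every one of the 4 genes is named, 3 genes just outside the limit once, and list genes where called and otherwise counted, up to 6 a list. The genes, lists and rules were chosen with earlier results of these data known. The tissue by day length comparisons and group by time terms were added after the values were seen. No sequences were used here.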

Additional observations from a re-analysis of the deposited data

Results flagged for a closer look

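Differences between groups that passed a test of the difference itself were these. The cosine terms of MT1C differed between day lengths by 1.76 in mesophyll and 1.62 in vasculature, and between vasculature and mesophyll in short days by 1.29. None of these cosine calls remained with either day left out. With group by time terms, the difference between day lengths spanned 3.64 for MT1C and 2.11 for CLE44 in mesophyll. In vasculature it spanned 3.95 for MT1C, 2.24 for AT5G62900 and 2.13 for CLE44, and in whole leaf 2.68 for AT5G62900 and 3.43 for CLE44. Between vasculature and mesophyll it spanned 2.76 for MT1C and 1.41 for CLE44 in long days, and 2.97 for MT1C in short days. The tissue difference of long minus short day was 3.65 for MT1C at ZT12 and -1.36 for CLE44 at ZT4. Neither of these 2 calls held in every fit that left out a day or an array. For MT1C, both short-day mesophyll arrays at ZT12 were under the low-value limit of 1.92, so its tissue difference may be overstated. All these genes were chosen for a wide daily range, which can enlarge such differences.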

How the results depend on the processing

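Of 32 single-gene calls, none changed sign under any alternative tried. The rhythm differences among them are distances, which cannot turn sign, so the count says nothing about these. Of 663 alternative values of single genes, 597 kept their direction and side of the threshold, 40 lost the call, 15 gained one and 11 turned sign, all 11 for differences that were not called. Leaving out each time from the whole-day means was added after the values were seen. The cause was not tested, except that a single day leaves 1 array per time, so that rhythm differences enter the residual.

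The choice of genes depended on the settings. A range minimum lower by 0.25 gave 15 genes, one higher by 0.25 gave 1 and one of 2 gave 1 (MT1C in both), a pseudocount of 4 gave 0, day 9 alone and day 10 alone gave 7 each (with 2 and 3 of the 4 genes), and a cosine peak from 14 to 22 h gave 9. Without replicate 7 of the long-day whole leaf 3 genes were left (MT1C lost), and after quantile normalization 3 (AT1G68238 lost).

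With a pseudocount of 4, the number called of the 4 genes became 1 for long-day vasculature minus whole leaf, 0 for long minus short day in mesophyll, 1 for long minus short day at ZT20, 1 for the whole-leaf rhythm difference, 0 for day 10 minus day 9 in short-day mesophyll and 2 for the tissue difference at ZT12. Median centring gave 0 for long minus short day in mesophyll. Quantile normalization gave 2 for long minus short day at ZT0, 2 for the tissue difference at ZT12 and 1 for that at ZT16. No low-value filter gave 0 for the rhythm difference between day lengths in vasculature and 0 for that between tissues in short days. Group by time terms gave 2, 2 and 3 for whole leaf, mesophyll and vasculature between day lengths and 2 for tissues in long days. CLE44 in vasculature, -0.0017 for long minus short day, became 0.017 with a pseudocount of 4, 0.042 after quantile normalization and 0.0095 with median centring.

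Leaving out a day, a time or replicate 7 of the long-day whole leaf gave these ranges of the number called. The range was 1 to 2 for short-day mesophyll minus whole leaf, 0 to 2 for long minus short day in whole leaf, 0 to 1 in mesophyll and 0 to 3 in vasculature, 1 to 2 for long-day vasculature minus whole leaf, and 0 to 2 at ZT0 and at ZT20. For rhythm differences it was 0 to 2 in whole leaf, 0 to 0 in mesophyll and in vasculature, and 0 to 0 between tissues in short days. It was 0 to 1 for day 10 minus day 9 in short-day mesophyll and for the tissue difference at ZT4 and at ZT12. AT1G68238 ranged from -1.08 to 0.17 for short-day vasculature minus mesophyll and from -0.25 to 1.53 for long minus short day in mesophyll, and CLE44 from -0.19 to 0.23 for long minus short day in vasculature, from -0.076 to 0.61 in whole leaf and from -0.14 to 0.22 for short-day vasculature minus whole leaf.

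Arrays of the same day and time in 2 groups did not deviate together (correlations from -0.22 to 0.15), so the numbers do not pair the samples. A replicate block of day and time gave 2 calls for the rhythm difference between day lengths in vasculature, 1 between tissues in long days and 2 in short days; elsewhere the number was as without it. Dim signal limits MT1C in short-day mesophyll, where 4 of 12 arrays were under the low-value limit, and AT1G68238 there, with 3 of 12. AT1G68238 had 2 such arrays in long-day mesophyll and 1 each in short-day whole leaf and vasculature. AT5G62900 had 1 in long-day and 2 in short-day mesophyll. Its ZT4 time means there were 1.92 and 1.89, so these troughs may be deeper than measured.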

Other observations

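AT1G68230, next to AT1G68238, had time means of 10.3 to 10.8 in vasculature and 1.69 to 2.41 in mesophyll over both day lengths, with 3.70 to 5.52 in whole leaf. CLE45 was higher in vasculature than in mesophyll by 0.67 ± 0.05 (long days) and 0.82 ± 0.04 (short days), under the minimum for a call, and CLE40 was lower by differences of -0.26 ± 0.06 and -0.24 ± 0.06. Time means of CLE45 in mesophyll (1.65 to 1.97) and of CLE40 in all groups (1.74 to 2.36) lay near the low-value limit of 1.92. These differences are therefore between dim signals. Of the genes just outside the range limit, AT5G47180 was lower in long days by a difference of -1.09 ± 0.16 at ZT12 and -1.27 ± 0.16 at ZT16, and AT5G42825 by -1.27 ± 0.20 at ZT16, the sign that AT5G62900 had at these times.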
